A study of Mus musculus with 10 samples.

Results

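Igkj4 is the fourth of the 5 joining (J) segments of the mouse immunoglobulin kappa light chain locus, Igk. Its joins were taken from a table of Igk transcripts as every entry whose J segment was called as IGKJ4, with alleles merged. They held 25598 of 161780 counts, or 15.8%, and 7719 of 42351 clonotypes summed over samples. A clonotype is a distinct combination of variable (V) segment, J segment and nucleotide sequence of the CDR3, the loop that spans the joint, within a sample. Over all 10 samples there were 4457 distinct Igkj4 clonotypes, and 111 of the 114 V segments in the table were joined to Igkj4 at least once.

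The samples were small pre-B cells sorted by flow cytometry from the bone marrow of C57Bl6 mice aged 6 to 12 weeks, 5 labelled WT and 5 labelled rsCBE. In the description of the series a delta precedes the name rsCBE, which none of the labels spells out. The title of the study concerns CTCF-mediated chromatin topology and receptor editing, in which a cell exchanges its light chain by rearranging the locus again. A second mutant of the series was not analysed here. The table holds no genes outside Igk, so the labelled cell type could not be checked against markers. The labels do not say whether each sample came from 1 animal, and the p-values measure the spread between these samples.

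In small pre-B cells the RAG recombinase joins one of many V segments to one of the J segments that lie in a row upstream of the constant exon, Igkc. The ends are trimmed and filled before they are sealed, so a join can fall in or out of the reading frame. A further rearrangement of the same allele can only use a J segment downstream of the one already joined. Igkj4 is the last but one J segment in that order, with Igkj5 as the single segment after it, and Igkj3 is regarded as nonfunctional in mice.

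The germline J segments are shown because their first bases form the end of the CDR3. In build GRCm38 they lie on chromosome 6 on the plus strand, and Igkj4 is at chr6:70723548-70723585, 986 bases downstream of the start of Igkj1 and 2849 bases before Igkc. The capitals mark the bases that belong to the CDR3, before the codon of a conserved phenylalanine in lower case.
Igkj1: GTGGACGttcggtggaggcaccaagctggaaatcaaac
Igkj2: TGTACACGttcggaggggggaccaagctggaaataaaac
Igkj3: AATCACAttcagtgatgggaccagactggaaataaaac
Igkj4: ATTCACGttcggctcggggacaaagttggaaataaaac
Igkj5: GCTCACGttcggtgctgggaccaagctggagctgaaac
Igkj4 thus offers 7 bases to the CDR3. Read in the frame of the conserved phenylalanine they are a single base, a phenylalanine codon and a threonine codon.

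The most frequent Igkj4 clonotypes show how these bases meet a V segment. The capitals mark the bases that match the germline Igkj4 end. The 5 in-frame CDR3 sequences with the highest mean share of Igkj4 counts were the following, named by V segment.
Igkv8-19: cagaatgattatagttatccATTCACG
Igkv8-16: cagcagcatttacacattccATTCACG
Igkv14-126: ctacagcatggtgagagcccATTCACG
Igkv9-120: ctacaatatgctagttctccATTCACG
Igkv4-50: cagcagtttactagttccccATTCACG
All 5 were 27 nucleotides long and kept the whole Igkj4 end. In the first 4, the V part matched 20 of the 23 germline CDR3 bases of the V segment, so that the last 3 V bases were gone and the joint stood between a pair of C and the ATTCACG of Igkj4. In the germline, the Igkv8-19 part reads cagaatgattatagttatcctcc. In Igkv4-50 the V match ran to 22 of 25 bases and overlapped the J match, so the place of that joint cannot be read from the sequence.

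The Igkv8-19 sequence held 2.58% of Igkj4 counts on average and was present in 10 of 10 samples. The WT samples spanned 1.60 to 2.87% with a median of 2.45%, and the rsCBE samples 1.60 to 3.63% with a median of 2.70%. The Igkv8-16 sequence held 2.31% on average and was present in 9 samples, with WT samples between 0 and 3.76% and rsCBE samples between 0.954 and 4.62%. The genotypes overlapped for both. The most frequent out-of-frame sequences, shown for contrast, were 28 nucleotides long.
Igkv5-43: caacagagtaacagctggcctcaTCACG
Igkv8-16: cagcagcatttacacattcccATTCACG
The Igkv5-43 sequence kept all 23 V bases and 5 Igkj4 bases and held 0.444% of Igkj4 counts. The Igkv8-16 sequence has a single base more than its in-frame counterpart above, and it held 0.412%. Both were present in 10 of 10 samples.

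Of the 4457 Igkj4 clonotypes, 24 were found in all 10 samples and 3312 in a single sample. WT replicate 4, with 455 Igkj4 counts, limits the first number: 63 clonotypes, 54 of them in frame, were found in all of the other 9 samples, and held 42.5% of their Igkj4 counts on average. The 24 held 20.3% of Igkj4 counts on average, and 21 of them were in frame. The 3312 held 17.2%, and 50.1% of them were in frame. Between these, the in-frame share was 34.6 to 48.9% for clonotypes found in 2 to 8 samples and 78.7% for those found in 9. By sample, the clonotypes found in all 10 held 15.3 to 28.8% and those found in a single sample 14.6 to 25.3%, so the ranges overlapped. Presence in every sample selects frequent sequences and presence in 1 sample rare ones, so the grouping itself favours this order.

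The depth behind these values ran from 455 Igkj4 counts in WT replicate 4 to 4030 in rsCBE replicate 1. Replicates 1 to 5 of WT held 3759, 3798, 2003, 455 and 1357 Igkj4 counts, and those of rsCBE held 4030, 3879, 2532, 2096 and 1689. Replicates 1 and 2 of each genotype were given as 1 library and replicates 3 to 5 as 2 parts that were added, and values within these kinds of library are given where they matter. In WT replicate 4 an in-frame share of 62.0% had a Wilson 95% interval of 57.4 to 66.3%. Such intervals treat each count as independent, although counts of 1 clonotype share a sequence. They do not cover the sampling of clonotypes, and it is not stated whether a count is a read or a molecule.

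The Igkj4 share of the repertoire lay between 13.9 and 17.8% in the 10 samples. It made up 16.5, 17.8, 14.5, 14.6 and 14.8% of all counts in WT replicates 1 to 5, and 16.7, 16.6, 13.9, 14.7 and 14.5% in rsCBE. In both genotypes replicates 1 and 2 were the highest, and the ranges overlapped. The WT mean was 15.6 ± 1.43% and the rsCBE mean 15.3 ± 1.32% (SD, n = 5 each). They differed by -0.35 percentage points (rsCBE minus WT, as below; two-sided exact permutation test, p = 0.675). Leaving out 1 sample gave -0.71 to 0.18 points, and the sign turned without WT replicate 2 and without rsCBE replicate 3. In each of the 10 samples Igkj4 had fewer counts than Igkj1, Igkj2 and Igkj5 and more than Igkj3, which held 62 counts in all.

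Set against Igkj5 alone, the segment downstream of it, Igkj4 made up 40.9, 40.7, 33.9, 29.6 and 32.8% of the sum of the pair in WT. In rsCBE the values were 30.3, 29.2, 26.0, 28.1 and 26.7%. WT replicate 4, which has the lowest depth, lay within the rsCBE range, and the other 4 WT samples lay above it. The means were 35.6 ± 5.02% and 28.1 ± 1.76% (SD, n = 5 each). The difference of -7.52 points had p = 0.0159 by the exact permutation test and 0.190 after adjustment over 12 genotype comparisons, so it did not pass. It was -11.0 points among the samples given as 1 library and -5.17 among those given as 2 parts. Without WT replicate 4 it was -9.02 points (exact permutation p = 0.00794, adjusted 0.0952). The rsCBE value was the lower in 5 of 5 same-numbered pairs (exact sign-flip p = 0.0625). Here and below, such pairs rest on the replicate numbers, and the labels do not pair the samples. Beside these values, the Igkj5 share of all counts was 28.6 ± 4.24% for WT against 39.2 ± 1.04% for rsCBE (SD, n = 5 each).

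**Figure D1:**
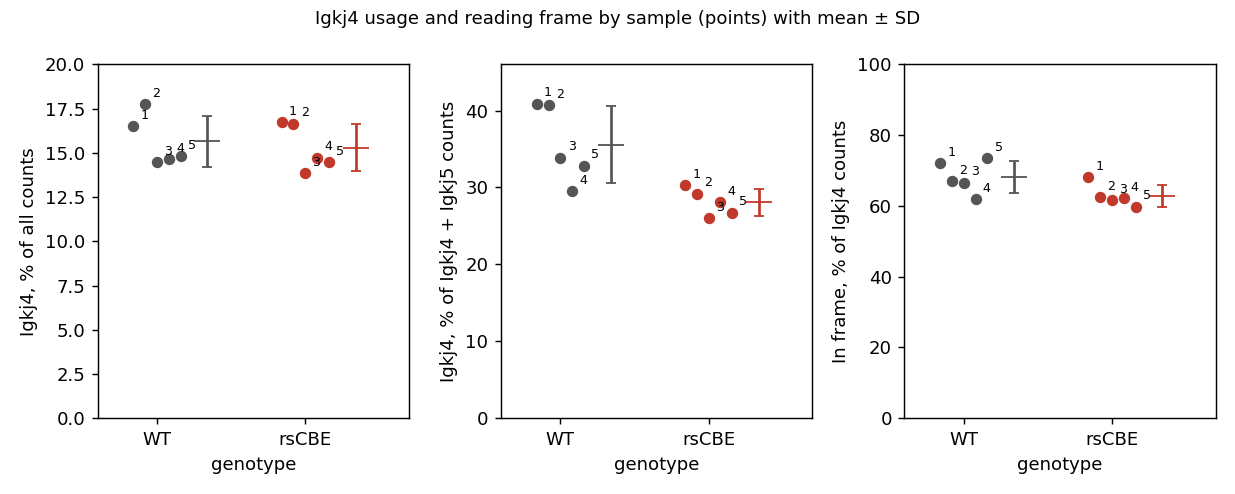
Igkj4 as a percentage of all counts (left), as a percentage of Igkj4 and Igkj5 counts together (middle), and the in-frame percentage of Igkj4 counts (right). Each point is a sample with its replicate number, and the bars are mean ± SD of 5 samples; in the middle panel WT replicate 4, at 29.6%, lies among the rsCBE samples.

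About 2 in 3 Igkj4 counts were in frame, meaning that the CDR3 length was a multiple of 3 and the sequence held no stop. The in-frame share was 72.0, 67.0, 66.6, 62.0 and 73.5% in WT and 68.0, 62.4, 61.7, 62.3 and 59.8% in rsCBE. The WT samples lay mostly above the rsCBE samples, and the ranges overlapped through WT replicates 2 to 4 and rsCBE replicate 1. The means were 68.2 ± 4.61% and 62.8 ± 3.08% (SD, n = 5 each), and the difference of -5.36 points did not pass (exact permutation p = 0.0952, adjusted 0.413). Without WT replicate 4 it was -6.92 points (exact permutation p = 0.0317, adjusted 0.190).

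Joins to Igkj4 were in frame less often than joins to the upstream segments in the same samples. Against 65.5 ± 4.65% for Igkj4, Igkj1 had 71.6 ± 3.89% and Igkj2 had 72.2 ± 3.91% (SD, n = 10). The in-frame share of Igkj4 was below that of Igkj1 in 9 of 10 samples, with a mean difference of -6.06 points (exact sign-flip permutation test, two-sided, adjusted p = 0.0100 over 18 comparisons between J segments). It was below that of Igkj2 in 10 of 10, with -6.71 points (adjusted exact p = 0.00879). Igkj5 had 63.8 ± 5.69%, and Igkj4 lay above it in 7 of 10 samples by a mean of 1.75 points, which did not pass (adjusted exact p = 0.0811). Without WT replicate 1 that last difference was 2.20 points with an adjusted exact p of 0.0410, and without clonotypes of 1 count it was 2.53 points with 0.0469.

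The out-of-frame joins of Igkj4 were of 2 kinds. Joins with 1 base more than a multiple of 3 made up 19.2 ± 2.99% of Igkj4 counts, and those with 2 bases more made up 14.7 ± 2.50% (SD, n = 10). A stop within a length that is a multiple of 3 was rare, at 0.572%. The 1-base class held 8.89% of Igkj1 counts and 13.4% of Igkj2 counts, and Igkj4 lay above both in 10 of 10 samples (exact sign-flip permutation p = 0.00195, the smallest that 10 samples can give; adjusted 0.00293 over 6 comparisons added after the data had been seen). In Igkj5 the same class held 20.4% (adjusted exact p = 0.170 against Igkj4). With each clonotype counted once Igkj4 was 1.57 points above Igkj5 in this class (adjusted exact p = 0.0258). The 2-base class held 11.6 to 13.8% of Igkj4 counts in WT and 13.3 to 18.6% in rsCBE. It was higher in rsCBE in 5 of 5 same-numbered pairs, and its difference between genotypes was not tested on its own.

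In-frame CDR3s of Igkj4 had mostly a single length. A CDR3 of 27 nucleotides, or 9 codons, made up 79.8 ± 4.02% of in-frame Igkj4 counts (SD, n = 10), 24 nucleotides 8.84 ± 1.81% and 30 nucleotides 6.65 ± 1.48%. The share at 27 nucleotides was 83.6, 79.6, 81.0, 69.1 and 81.4% in WT and 82.6, 78.6, 81.6, 80.8 and 79.8% in rsCBE. WT replicate 4 was the lowest, and the other 9 samples lay within 5 points of each other.

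The WT mean of the in-frame length was 26.73 ± 0.199 nucleotides and the rsCBE mean 26.80 ± 0.0540 (SD, n = 5 each; exact permutation p = 0.548, adjusted 0.733). Within samples the Igkj4 mean of 26.77 nucleotides was above the 26.59 of Igkj1 in 9 of 10 samples (exact sign-flip permutation, adjusted p = 0.0117). Against the 26.89 of Igkj2 and the 26.65 of Igkj5 it did not pass (adjusted exact p = 0.0586 and 0.0829). The difference from Igkj2 passed without WT replicate 5, at -0.159 nucleotides, and with each clonotype counted once, at -0.281, and without WT replicate 4 that from Igkj5 passed, at 0.159 nucleotides.

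**Figure D2:**
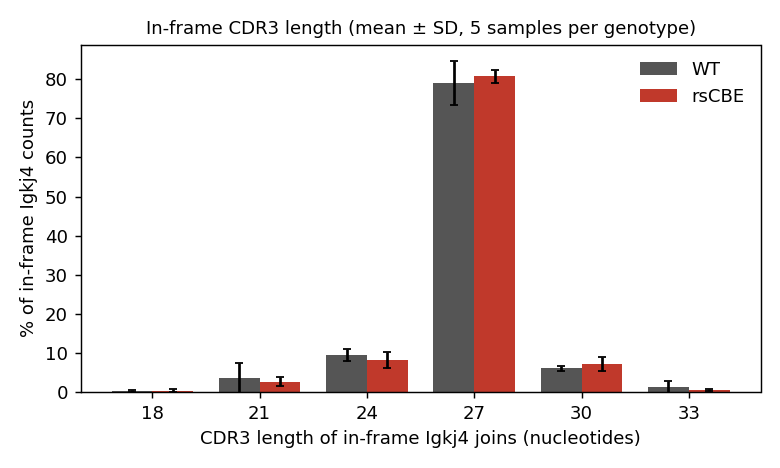
Share of in-frame Igkj4 counts (vertical axis, percent) at each CDR3 length from 18 to 33 nucleotides, as mean ± SD of 5 samples per genotype. The bar at 27 nucleotides is the highest in both genotypes, at 78.9% in WT and 80.7% in rsCBE.

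The J-encoded end of the CDR3 was kept whole in most Igkj4 joins. The 7 bases ATTCACG were all matched in 69.6, 69.1, 67.3, 64.0 and 71.0% of Igkj4 counts in WT and in 68.5, 67.0, 67.5, 68.3 and 68.9% in rsCBE. The lowest and the highest sample were both WT. The mean was 68.1 ± 1.88% (SD, n = 10), against 46.3 ± 2.87% for the 7 bases of Igkj1 and 49.7 ± 2.28% for the 7 bases of Igkj5. Igkj4 lay above both in 10 of 10 samples, by 21.8 and 18.4 points (exact sign-flip permutation, adjusted p = 0.00293 each, over the same 6 added comparisons).

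Igkj2 has 8 bases in the CDR3, and only 15.5% of its counts held all 8, while 54.2% missed a single base. Counted as at least 7 J bases, the same span as in Igkj4, Igkj2 stood at 69.8 ± 1.44% (SD, n = 10). Igkj4 was below it in 9 of 10 samples, with a mean difference of -1.66 points (adjusted exact sign-flip permutation p = 0.00703). The lowest sample stood at -8.12 points, and leaving out 1 sample gave -1.87 to -0.94. The difference lost its call when clonotypes of 1 count were left out. With each clonotype counted once it turned to 1.94 points above Igkj2 (adjusted exact p = 0.0430), so its direction depends on how clonotypes are weighted. Some J-matched bases also match the germline V end and could have come from either segment. Such an overlap was present in 12.4 ± 1.25% of Igkj1 counts, 23.8 ± 2.33% of Igkj2, 29.4 ± 2.56% of Igkj4 and 33.5 ± 2.70% of Igkj5 (SD, n = 10 each), and its part in the shares of J bases was not tested. Read errors within the J bases were not measured.

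**Figure D3:**
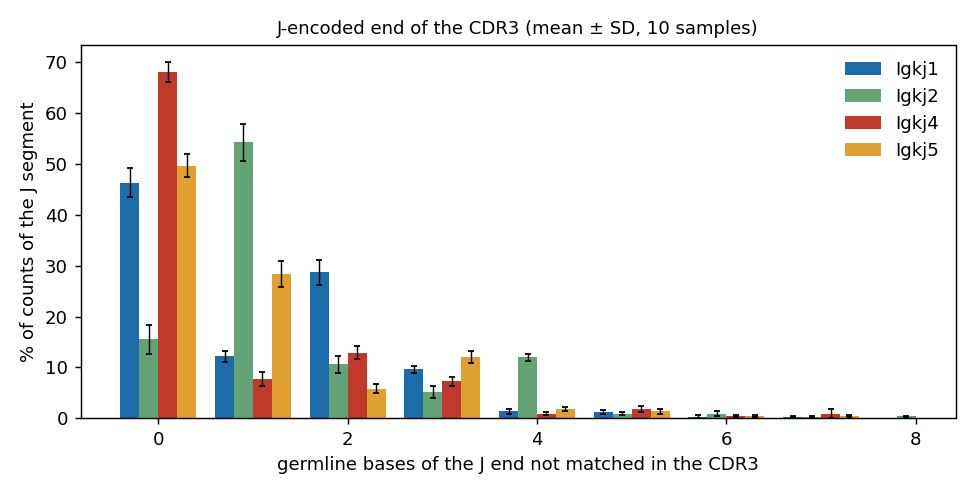
Share of counts (vertical axis, percent) by the number of germline J bases not matched at the end of the CDR3, for Igkj1, Igkj2, Igkj4 and Igkj5, as mean ± SD of 10 samples. At 0 missing bases Igkj4 stands at 68.1%, and Igkj2, whose J end is a base longer, has its highest bar at 1 missing base.

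The difference was not limited to in-frame joins. The whole end was present in 77.4 ± 2.69% of in-frame Igkj4 counts and in 50.1 ± 2.08% of those whose length is not a multiple of 3 (SD, n = 10). The corresponding values were 52.5 and 30.1% in Igkj1 and 59.2 and 31.9% in Igkj5. The V partners, which differ between J segments, were compared one by one with the counts of all samples added. Of 48 V segments with at least 100 counts in both Igkj4 and Igkj1 joins, 46 had the higher share of at least 7 J bases with Igkj4. For Igkj5 it was 55 of 58 V segments, and for Igkj2 27 of 57.

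Among the 58 V segments with at least 100 Igkj4 counts, the share of whole ends ran from 44.8% in Igkj4 joins of Igkv4-86 to 85.8% in those of Igkv12-89. Of these V segments, 32 end in tcc in the germline. Their shares ran from 54.2% in Igkv8-21 to 85.8% in Igkv12-89, with a median of 76.2%. The other 26 ran from 44.8 to 82.8%, with a median of 66.1%, so the ranges overlapped widely. This grouping was made after the values were seen and carries no test.

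In the protein, the Igkj4 end gives a phenylalanine and a threonine as the last residues of the CDR3. The germline phenylalanine codon was kept in 82.6, 83.4, 83.4, 73.8 and 83.7% of in-frame Igkj4 counts in WT and in 85.0, 82.1, 84.6, 83.5 and 84.9% in rsCBE. WT replicate 4 lay far below the other 9 samples. The means were 81.4 ± 4.26% and 84.0 ± 1.24% (SD, n = 5 each; exact permutation p = 0.143, adjusted 0.429). The difference of 2.67 points became 0.766 without WT replicate 4 (exact permutation p = 0.302).

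At the joint itself, 65.3 ± 2.80% of in-frame Igkj4 counts ended in a pair of C followed by the whole ATTCACG (SD, n = 10), the end seen in the frequent clonotypes above. A proline codon and the germline phenylalanine codon stood in this order before the last codon in 69.1% of in-frame counts. The last codon was not part of this measure. Where the phenylalanine was replaced, leucine was the most frequent residue in its place, at 6.77 ± 1.22% (SD, n = 10), ahead of proline at 3.77%, isoleucine at 2.0% and arginine at 1.08%.

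Igkj4 joins of WT missed 0.801 ± 0.160 J bases on average and those of rsCBE 0.741 ± 0.0333 (SD, n = 5 each; exact permutation p = 0.611, adjusted 0.733). The germline V and J matches together covered the whole CDR3, with no base between them, in 79.3 ± 2.50% and 80.3 ± 2.30% of Igkj4 counts (exact permutation p = 0.508, adjusted 0.733). In 50.4% of Igkj4 counts the matches abutted and in 29.4% they overlapped. In 11.7% they left 1 to 3 bases unassigned, and in 8.46% they left 4 or more. The covered share of 79.8% was below that of Igkj1 and of Igkj5 within samples, with differences of -2.39 and -2.48 points (adjusted exact sign-flip permutation p = 0.0100 and 0.00879). Against Igkj2 the difference was -0.33 points (adjusted exact p = 0.831), and leaving out 1 sample gave -1.14 to 0.32. With each clonotype counted once Igkj4 was 3.41 points above Igkj1, 3.62 above Igkj2 and 2.22 above Igkj5, and all passed (adjusted exact p = 0.00586, 0.00586 and 0.0293). The direction thus depends on how clonotypes are weighted.

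The V partners of Igkj4 came from the whole locus. V segments are numbered by distance from the J segments, and proximal (numbers 1 to 45), middle (46 to 90) and distal (91 and above) ones made up 42.9 ± 4.70%, 18.5 ± 1.70% and 38.6 ± 4.67% of Igkj4 counts (SD, n = 10). The Igkv8 family held 20.9% and the Igkv4 family 17.5%. The most frequent partners were Igkv8-16 with 5.57 ± 3.67% of Igkj4 counts, Igkv8-19 with 4.22 ± 1.21%, Igkv17-127 with 4.13 ± 0.969%, Igkv2-137 with 4.10 ± 1.36% and Igkv19-93 with 3.39 ± 1.36%. After these came Igkv17-121, Igkv5-43, Igkv8-27, Igkv9-120 and Igkv3-12, with 3.34 to 2.39%. Within the SDs neighbours in this order did not differ, and the order depends on the sample. Igkv8-16 was the most frequent partner in 5 of 10 samples, all given as 2 parts. In the samples given as 1 library Igkv2-137 had the highest mean, at 5.30%.

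Igkv8-16 lies at chr6:70386672-70387252, 336 kb from Igkj4 on the opposite strand, so that it joins by inversion. It made up 1.54, 1.66, 8.29, 3.08 and 9.14% of Igkj4 counts in WT and 2.36, 2.14, 7.86, 10.2 and 9.41% in rsCBE. In both genotypes the samples given as 1 library were low, with a mean of 1.92% against 8.0% for those given as 2 parts. Igkv5-43 went the other way, with 4.62% against 2.06%. The part of the kind of library in these values was not tested.

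The position of the V partners differed from J segment to J segment. The distal share of Igkj4 was below that of Igkj1 in 10 of 10 samples, with 38.6 against 43.3 ± 3.52% (adjusted exact sign-flip permutation p = 0.00879). It was above that of Igkj5 in 9 of 10, with 38.6 against 32.7 ± 2.95% (adjusted exact p = 0.0117). It was also below the 41.2 ± 5.11% of Igkj2 in 8 of 10 (adjusted exact p = 0.0352). That call was lost on leaving out any 1 of WT replicates 2 to 5 and rsCBE replicates 1 and 2, with differences from -2.69 to -2.25 points. The proximal share was 3.92 points above that of Igkj1 (higher in 9 of 10 samples, adjusted exact p = 0.0211) and did not pass against Igkj2 or Igkj5 (adjusted exact p = 0.448 and 0.873). With each clonotype counted once it was 2.33 points above Igkj2 and 2.11 above Igkj5, and both passed (adjusted exact p = 0.0224 each). The distal difference from Igkj2 then shrank to -0.94 points and did not pass.

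V segments whose strand is opposite to that of the J segments, which join by inversion and leave the intervening DNA in the chromosome, made up 58.0 ± 2.73% of Igkj4 counts (SD, n = 10). That was 4.17 points above Igkj1 (higher in 9 of 10 samples, adjusted exact sign-flip permutation p = 0.0100; 2.88 points and an adjusted exact p of 0.0502 with each clonotype counted once) and below Igkj5, with -7.94 points (lower in 10 of 10, adjusted exact p = 0.00879). From Igkj2 it differed by 1.88 points and did not pass (adjusted exact p = 0.241).

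**Figure D4:**
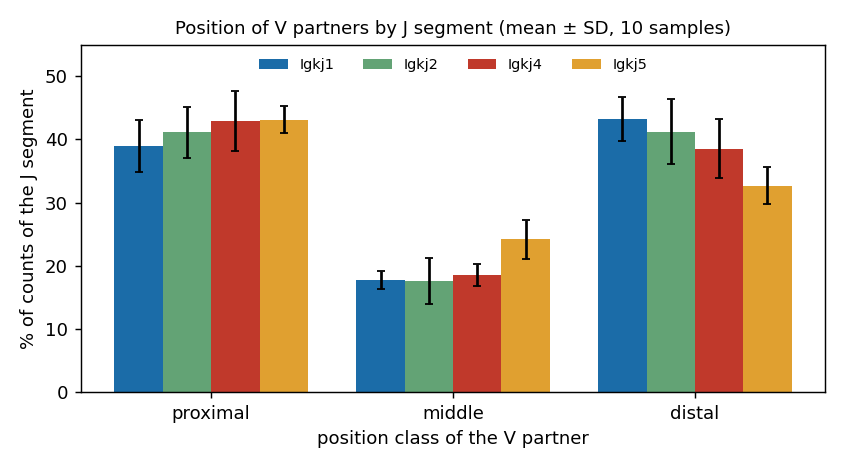
Share of counts (vertical axis, percent) with proximal, middle and distal V partners for Igkj1, Igkj2, Igkj4 and Igkj5, as mean ± SD of 10 samples. The distal bars step down from 43.3% in Igkj1 to 32.7% in Igkj5, with Igkj4 at 38.6%.

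The genotypes did not differ beyond their spread in these partner classes. For WT and rsCBE in turn, the proximal share of Igkj4 was 42.9 ± 6.11% and 42.9 ± 3.53%, and the distal share 37.6 ± 5.81% and 39.5 ± 3.63% (SD, n = 5 each; exact permutation p = 1 and 0.556, adjusted 1 and 0.733). Leaving out 1 sample moved the proximal difference between -2.01 and 2.23 points. The inversional share was 59.0 ± 3.50% and 57.1 ± 1.49% (exact permutation p = 0.294, adjusted 0.705). Shannon entropy of the V partners, a measure of how evenly they are used, was 5.71 ± 0.181 and 5.79 ± 0.0489 bits (exact permutation p = 0.429, adjusted 0.733).

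At an equal depth of 455 counts, the expected number of distinct Igkj4 clonotypes was 256, 274, 223, 129 and 216 in WT and 269, 289, 253, 259 and 250 in rsCBE. WT replicates 3 to 5 lay below all rsCBE samples. The means of 219.7 ± 56.0 and 263.9 ± 15.8 had a difference of 44.2 clonotypes that did not pass (SD, n = 5 each; exact permutation p = 0.103, adjusted 0.413). Without WT replicate 4 it was 21.5 clonotypes (exact permutation p = 0.214). The rsCBE value was the higher in 5 of 5 same-numbered pairs, which the labels do not give as pairs. The exact sign-flip p was 0.0625, the smallest that 5 pairs allow. Permuted within the kinds of library it had an exact p of 0.0333 (adjusted 0.200).

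Single V-Igkj4 pairs were compared between genotypes in a fit of all V-J pairs (edgeR's quasi-likelihood test with Benjamini-Hochberg adjustment at 0.05). None of 270 tested pairs was called, a background of 0% called, and thus 0 of the 58 Igkj4 pairs. Before adjustment 3 Igkj4 pairs had a p under 0.05. DESeq2 called 3 of the 270 pairs (1.11%) but 0 Igkj4 pairs, with 5 under 0.05 before adjustment. With the kind of library as a term edgeR called 7 of 270 (2.59%) and 0 Igkj4 pairs, with 6 under 0.05 before adjustment. The smallest p values in edgeR belonged to Igkv8-34, Igkv8-18 and Igkv12-89, lower in rsCBE by log2 fold changes of -1.55, -1.42 and -1.39 (adjusted p = 0.462 each). Igkv8-34 made up 0.239, 0.474, 1.60, 2.86 and 0.663% of Igkj4 counts in WT and 0.223, 0.206, 0.474, 0.239 and 0.71% in rsCBE. WT replicates 3 and 4 were high, and the remaining samples overlapped.

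Within samples, many V segments were joined to Igkj4 at another rate than to the other J segments. V counts of Igkj4 joins were set against those of all other joins of the same sample (edgeR's quasi-likelihood test with the sample as a term, Benjamini-Hochberg adjusted). Of 71 tested V segments 32 were called, 45.1%, with 14 higher and 18 lower with Igkj4, or 19.7 and 25.4%. In WT alone 16 of 72 were called and in rsCBE alone 27 of 86, with 14 and 24 of them shared with the 32.

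Called V segments that were higher with Igkj4 in 10 of 10 samples were Igkv17-127, Igkv8-19, Igkv2-112, Igkv2-137 and Igkv3-7. Igkv17-127, at chr6:67861153-67861659 and 2862 kb from Igkj4 on the same strand, made up 3.35, 3.69, 4.89, 2.42 and 5.60% of Igkj4 counts in WT and 3.65, 4.56, 4.74, 4.96 and 3.43% in rsCBE. It made up 1.98 ± 0.243% of the other joins (SD, n = 10), and its log2 fold change was 1.06 ± 0.13 (SE, edgeR adjusted p = 1.15e-06). Broken down by J segment it held 0.197% of Igkj1, 2.65% of Igkj2, 4.13% of Igkj4 and 3.03% of Igkj5 counts. It was rare with Igkj1 and present with all later segments.

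The same was seen in Igkv8-19, with 0.482% of Igkj1 and 4.22% of Igkj4 counts, and a log2 fold change of 0.91 ± 0.13 (SE, edgeR adjusted p = 5.36e-06). Against Igkj5 alone it was 0.43 and did not pass (edgeR adjusted p = 0.116). Igkv2-112 held 0.143% of Igkj1 and 1.34% of Igkj4 counts (log2 fold change 0.88), and against Igkj5 alone its log2 fold change was 0.12 (edgeR adjusted p = 0.699). Igkv2-137 held 0.217% of Igkj1, 6.11% of Igkj2, 4.10% of Igkj4 and 2.35% of Igkj5 counts. Its fold change of 0.64 against the other J segments together became -0.55 against Igkj2 alone (edgeR adjusted p = 0.00293), so that its highest share was with Igkj2. In WT alone its fold change of 0.68 did not pass (edgeR adjusted p = 0.0933). Igkv3-7, 116 kb from Igkj4, held 0.854% of Igkj1 and 1.74% of Igkj4 counts (log2 fold change 0.62), and it did not pass against Igkj2 alone (0.39, edgeR adjusted p = 0.244) or in WT alone (adjusted p = 0.280).

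Called V segments that were lower with Igkj4 in 10 of 10 samples were Igkv4-80, Igkv1-135, Igkv10-96, Igkv1-88, Igkv16-104 and Igkv8-16, with log2 fold changes of -1.43, -1.38, -1.14, -1.04, -0.84 and -0.37. The call of Igkv8-16 was lost with TMM factors (edgeR adjusted p = 0.0723), without WT replicate 2 (0.0503), in WT alone (0.153) and in rsCBE alone (0.0629). Its log2 fold change was -0.15 with each clonotype counted once, -0.08 against Igkj2 alone and -0.16 against Igkj5 alone, none of which passed. Igkv16-104 was at 0.0025 when each clonotype was counted once, and at -0.24 against Igkj5 alone, which did not pass (edgeR adjusted p = 0.524). Igkv10-96 did not pass in WT alone (edgeR adjusted p = 0.0716) and had too few counts for a test against Igkj5 alone. Igkv4-80 had too few counts for tests against Igkj2 alone or Igkj5 alone, and against Igkj1 alone it was at -2.36. Igkv1-135 made up 9.13% of Igkj1, 3.66% of Igkj2, 1.81% of Igkj4 and 1.64% of Igkj5 counts. With Igkj4 it held 0.426, 0.342, 2.65, 0 and 2.58% in WT and 0.571, 0.851, 2.80, 2.77 and 5.09% in rsCBE. Like Igkv8-16, it was low in the samples given as 1 library, with 0.547% against 2.65%. Against Igkj5 alone its log2 fold change was 0.12 (edgeR adjusted p = 0.727), so it was the early J segments that held more of it. Igkv1-88 held 2.73% of Igkj1, 1.94% of Igkj2, 0.960% of Igkj4 and 1.37% of Igkj5 counts, its lowest share being that with Igkj4, although the difference from Igkj5 alone did not pass (edgeR adjusted p = 0.136).

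**Figure D5:**
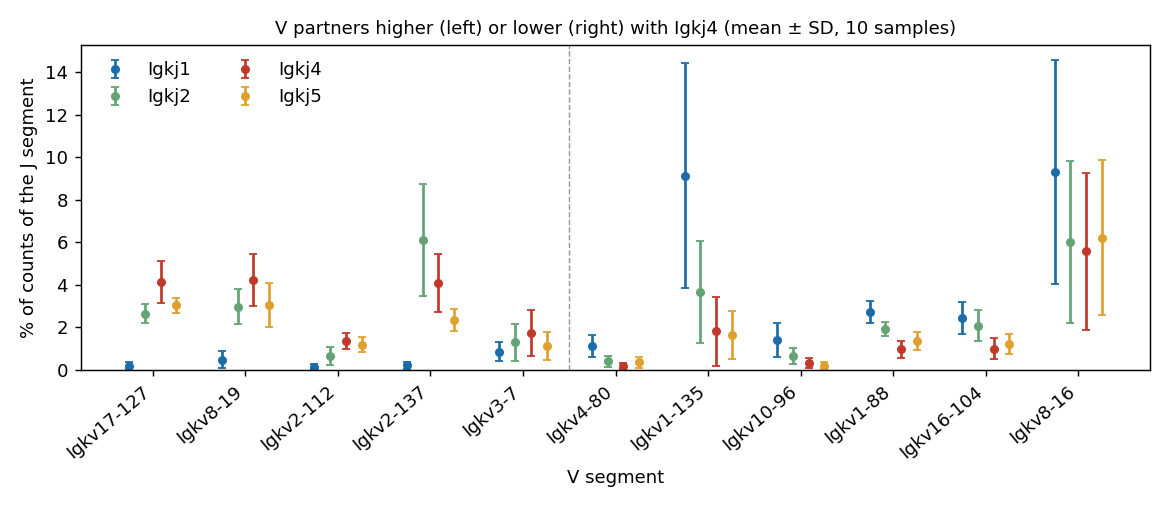
Share of the counts of each J segment (vertical axis, percent) held by the V segments that were called higher (left of the dashed line) or lower (right) with Igkj4 than with the other J segments in 10 of 10 samples. Points are means and bars SD of 10 samples; of the V segments on the left, Igkv17-127, Igkv8-19, Igkv2-112 and Igkv2-137 held under 0.5% of Igkj1 counts.

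The number of V segments called depended on the J segment that served as the comparison. Against Igkj1 alone 45 of 65 V segments were called (69.2%), against Igkj2 alone 15 of 60 (25%) and against Igkj5 alone 16 of 67 (23.9%). The Bray-Curtis distance of V shares to those of Igkj4, which is 0 for equal shares and 1 for no shared V segment, was 0.444 ± 0.0660 for Igkj1, 0.243 ± 0.113 for Igkj2 and 0.246 ± 0.121 for Igkj5 (SD, n = 10). Igkj1 was the farthest in 10 of 10 samples, and Igkj2 was the nearest in 6 and Igkj5 in 4. By this measure Igkj2 and Igkj5 were the J segments most like Igkj4 in their V partners, and they did not differ from each other beyond their spread. The distances were largest in WT replicate 4, the shallowest sample, at 0.528 to 0.618.

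Whether the partner preference of Igkj4 differed between genotypes was tested by an interaction term in the same edgeR fit. Of 71 V segments 1 was called, 1.41%. It was Igkv8-34, whose log2 fold change of Igkj4 over the other J segments was 1.67 in WT and -0.34 in rsCBE, a difference of -2.02 (edgeR adjusted p = 0.0481). The call was lost without any 1 of WT replicates 2 to 5 or rsCBE replicates 1 to 4. WT replicate 4 was the sample in which Igkv8-34 was highest, at 2.86% of 455 Igkj4 counts.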

How the data were processed

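Igk amplicons of 10 samples were sequenced as paired reads of 151 bases on a MiSeq, per the labels' protocols. The authors deposited 1 table of 49079 lines that gives, per the file headers, library, V and J calls, CDR3 and a whole-number count. The counts carry no normalization. The submitters' processing notes name the build mm10, and the programs that called segments, the filters and the use of molecular identifiers are not given in the sources used here. Duplicate lines, 49 in number, and the parts of a replicate were added.

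Totals per sample ran from 3109 to 24083 counts. Germline J and V ends came from GENCODE M21 (GRCm38), which held the end of 110 of 114 V segments. The J end was the longest match of the CDR3 end to the germline J bases. V strand and position came from the annotation and from the V number. Because the genome sequence was not used here, recombination signals were not read.

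Members, lists and tests were chosen with earlier results of these data known. Single values were compared by exact permutation between genotypes (smallest p 0.00794) and by exact sign flips within samples, adjusted by Benjamini-Hochberg over 12 and 18 comparisons, and 6 comparisons were added later. V-J pairs and V partners were fitted with edgeR 4.0.16 in R 4.3.3 (library size the column total, filterByExpr), and these fits were tested on simulated data. Named V segments were the 10 most frequent partners, those called with one sign in 10 samples, the 3 with the smallest p between genotypes, and, chosen after their values were seen, the ends of the order by J end. Alternatives were TMM factors, DESeq2 1.42.0, no filter, each clonotype counted once, clonotypes of 1 count left out, other J references, each genotype or kind of library alone, a replicate block, and each sample left out. The labels do not pair WT and rsCBE samples, and comparisons of same-numbered samples rest on the numbers alone. Deviations of same-numbered samples from the group means had correlations of 0.634, 0.616, 0.333, 0.119 and 0.232 over 230 V-J pairs. By the same measure 1 of 5 WT and 2 of 5 rsCBE samples correlated best with their own number, so this check does not establish pairs. Same-numbered samples also share the kind of library, and its part in these correlations was not tested.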

Additional observations from a re-analysis of the deposited data

Results flagged for a closer look

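The share of in-frame Igkj4 counts that keep the germline phenylalanine codon was 73.8% in WT replicate 4, while the other 4 WT samples lay between 82.6 and 83.7%. The gap took up more of the group's range than Dixon's 95% limit of 0.71 for 5 samples allows. Of 44 groups examined in this way 1 stood out, and chance gives about 1 in 20, or 2.2. The sample has 455 Igkj4 counts in 129 clonotypes. The Wilson 95% interval of its value, 68.3 to 78.5%, treats each count as independent and does not cover the sampling of clonotypes.

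The partner preference of Igkj4 for Igkv8-34 differed between genotypes by a log2 value of -2.02 in the interaction test (edgeR adjusted p = 0.0481). DESeq2 called Igkv8-34 (-1.94) and Igkv8-18 (-1.87). Without WT replicate 4 the test called 0 V segments.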

How the results depend on the processing

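Among genotype comparisons, the samples given as 1 library alone turned the sign of the covered share (-1.86 points) and of entropy (-0.0547 bits), neither of which had passed. With the replicate block the single values could not pass, since 5 pairs allow no exact p under 0.0625. The blocked difference of -7.52 points for Igkj4 against Igkj5 had that p. In edgeR with the block 0 Igkj4 pairs were called. Without WT replicate 4 the genotype differences of in-frame length (-0.0051 nucleotides) and of missing J bases (0.0076) turned sign, neither of which had passed. Counting each clonotype once gave, for Igkj4 against another J segment, a length difference from Igkj2 of -0.281 nucleotides (passed), proximal differences of 2.33 points from Igkj2 and 2.11 from Igkj5 (both passed, and the sign against Igkj5 turned), a distal difference from Igkj2 of -0.942 (call lost) and an inversional difference from Igkj1 of 2.88 (call lost). The covered share reversed to 3.41, 3.62 and 2.22 points against Igkj1, Igkj2 and Igkj5, the share of at least 7 J bases against Igkj2 to 1.94, and the 1-base class against Igkj5 to 1.57, all past the threshold. Without clonotypes of 1 count the in-frame difference from Igkj5 passed at 2.53 points, and the 7-base difference from Igkj2 lost its call at -1.58. Leaving out 1 sample gave ranges of 1.39 to 2.20 points for the in-frame difference from Igkj5, -0.159 to -0.102 and 0.0903 to 0.159 nucleotides for length against Igkj2 and Igkj5, and -3.22 to -2.25 points for distal V against Igkj2. The cause was not tested in any of these.

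V partners called numbered 15 against Igkj2 alone, 16 against Igkj5 alone and 16 in WT alone. Counted once 24 were called, 18 of them among the 32. The genotype difference of partner preference gave 0 calls with TMM factors, 0 without a filter, 0 counted once, 2 with DESeq2, 2 without clonotypes of 1 count, and 0 to 2 on leaving out 1 sample. Turned signs of single V segments were listed only where the main fit or the alternative passed. They were Igkv2-137 against Igkj2 (-0.55), Igkv19-93 against Igkj5 (0.28), Igkv5-43 against Igkj1 (1.32), Igkv1-135 against Igkj5 (0.12), and, counted once, Igkv8-27 (0.48) and Igkv16-104 (0.0025). Of the other values of single V segments, 526 kept their side of the threshold, 28 lost a call and 1 gained one. The 526 can include signs that turned while neither fit passed. Depth limits WT replicate 4 most, with 455 Igkj4 counts in 129 clonotypes. V family members that resemble each other may share reads, and their single shares are uncertain.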
